A study of Mus musculus with 33 samples.

Results

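The genes described here are 6 of the 54532 rows of the count table: the serum amyloid A genes Saa1, Saa2 and Saa3, the lipocalin gene Lcn2, the lactoferrin gene Ltf, and Pigr, the gene of the polymeric immunoglobulin receptor. They were picked by symbol with their levels in these libraries already known, so their levels and fold changes are given as descriptions and carry no test. Read counts per 1e6 reads (CPM), scaled between libraries by the trimmed mean of M values (TMM), are given library by library over 6 groups named by the sample titles. All samples are labelled as mammary tumour of FVB mice, and their protocol describes tumours transplanted into mice. The groups VEH_7 (3 libraries) and VEH (4 libraries) received vehicle. The groups M20_7 (4 libraries) and MYT (11 libraries) received RP-6306, an inhibitor of the kinase PKMYT1, at 20 mg/kg, a daily dose in the protocol but marked with a more frequent schedule in the sample field. The groups SPON (5 libraries) and WT (5 libraries) were untreated. The study set out to compare treated with untreated cyclin E transgenic tumours, and such tumours with PyMT tumours. The labels give no tumour line, transgene promoter, age or treatment period, and do not say what the ending _7 means or which of SPON and WT is which tumour. Treatment and tumour of origin therefore cannot be told apart in the comparisons below.

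All 6 genes encode proteins of innate and mucosal defence. Serum amyloid A proteins are acute-phase proteins that travel with lipoprotein particles: the liver releases SAA1 and SAA2 into blood in inflammation, whereas SAA3 is made mostly outside the liver, by macrophages, fat and epithelia. Lipocalin 2 captures the iron carriers (siderophores) of bacteria, lactoferrin binds iron itself in milk and other secretions, and both are also stored in neutrophil granules. The polymeric immunoglobulin receptor carries IgA dimers across secretory epithelium into milk, saliva and mucus. Transcription of several of these genes is driven by NF-kB, C/EBP factors and STAT3 downstream of interleukin 6, interleukin 1, TNF and interleukin 17.

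The 3 Saa genes lie together on chromosome 7 of GRCm38: Saa3 at 46711998 to 46715700, Saa1 at 46740497 to 46742980 and Saa2 at 46751790 to 46754313. Saa1 and Saa2 point away from each other with 8809 bases between them, and 24796 bases separate Saa3 from Saa1. Lcn2 is on chromosome 2 (32384633 to 32388252), Ltf on chromosome 9 (111019271 to 111042767) and Pigr on chromosome 1 (130826684 to 130852249). No other annotated gene overlaps any of the 6. The windows around the start sites of the Saa genes are shown because Saa1 and Saa2 were high in the same libraries, whereas Saa3 was low in the WT libraries where those 2 were highest. Each window is the sense strand from 250 bases before the RefSeq start to 50 bases after it (GRCm38.p6). They span chr7:46742931-46743230 (minus strand) for Saa1, chr7:46751583-46751882 (plus strand) for Saa2 and chr7:46715627-46715926 (minus strand) for Saa3. Capitals mark matches on either strand to a C/EBP motif (TTGCNNAA) and to an NF-kB motif (GGGNNNNNCC), letters that were chosen after the sequences had been seen.
Saa1: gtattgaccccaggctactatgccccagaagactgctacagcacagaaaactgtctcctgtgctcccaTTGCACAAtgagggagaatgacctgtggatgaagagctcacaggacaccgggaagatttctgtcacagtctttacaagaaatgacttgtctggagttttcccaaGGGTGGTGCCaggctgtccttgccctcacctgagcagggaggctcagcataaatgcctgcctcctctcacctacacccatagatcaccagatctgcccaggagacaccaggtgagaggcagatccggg
Saa2: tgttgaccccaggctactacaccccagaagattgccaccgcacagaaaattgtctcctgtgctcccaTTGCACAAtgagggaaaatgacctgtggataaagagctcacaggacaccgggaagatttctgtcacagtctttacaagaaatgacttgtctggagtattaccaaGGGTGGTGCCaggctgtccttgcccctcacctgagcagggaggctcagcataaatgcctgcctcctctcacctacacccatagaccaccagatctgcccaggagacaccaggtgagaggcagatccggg
Saa3: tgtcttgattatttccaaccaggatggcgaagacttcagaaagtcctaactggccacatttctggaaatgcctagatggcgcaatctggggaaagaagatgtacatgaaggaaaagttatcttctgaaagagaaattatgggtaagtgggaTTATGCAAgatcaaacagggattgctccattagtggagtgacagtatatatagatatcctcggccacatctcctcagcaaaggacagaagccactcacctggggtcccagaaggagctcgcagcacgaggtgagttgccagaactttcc

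The windows of Saa1 and Saa2 were identical at 287 of 301 aligned positions (95.3%), and both held 1 match to each motif at nearly the same distance from the start, beginning at bases -182 and -78 in Saa1 and -183 and -79 in Saa2. The Saa3 window aligned to that of Saa1 with 50.1% identity. It held 1 C/EBP match, beginning at base -99, and no match to the NF-kB letters. The windows of Lcn2 and Ltf each held 1 C/EBP match and that of Pigr held none. Of 32851 windows of this length, 10.8% held the C/EBP letters and 50.8% the NF-kB letters. The principal transcripts of Saa1 and Saa2 were 87.3% identical, and 51 of the 560 stretches of 50 bases in Saa1 also occur in Saa2. How the authors' counting treated reads that fit both genes is not stated in the labels, so the split between Saa1 and Saa2 is less certain than their sum.

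Total counts ran from 26517748 to 34637096 in the VEH_7 and M20_7 libraries and from 13701115 to 20105407 in the others. Epithelial marker levels differed between the groups: Epcam, an epithelial adhesion molecule, had medians of 4.31 CPM in VEH_7, 4.40 in M20_7 and 18.1 in VEH, against 1426 in MYT, 1358 in SPON and 941 in WT. The summed level of 20 luminal epithelial markers was 63.7 to 146 CPM in VEH_7, 68.1 to 133 in M20_7 and 675 to 1986 in VEH, and at least 5091 CPM in every MYT, SPON and WT library. Among the VEH libraries, replicate 1 stood apart for Epcam, with 239 CPM against 8.92 to 26.3 in the other 3. It also stood apart for summed milk-secretory markers (1118 CPM against 506 to 660), the milk gene Csn2 (80.3 against 5.05 to 9.03) and the secretory gene Bhlha15 (6.60 against at most 0.578). It did not for the luminal sum (1986 CPM against 1953 in replicate 4) or for the keratin gene Krt8 (876 CPM against 1535 in replicate 4). In bulk RNA, fewer cells of a type and less RNA per cell cannot be told apart. Of neutrophils, a known source of lipocalin 2 and lactoferrin, the granule genes Ngp and Camp and the surface marker Ly6g stayed at or under 2.14 CPM in all 32 libraries. Other neutrophil genes were well detected: in MYT, S100a8 ran from 26.0 to 66.7 CPM, S100a9 from 21.5 to 56.5 and Csf3r from 36.6 to 84.3, against at most 20.5, 15.4 and 27.6 CPM in VEH. In WT the ranges were 6.24 to 28.2 CPM for S100a8, 0.505 to 1.28 for S100a9 and 2.42 to 5.08 for Csf3r. In SPON they were 1.97 to 31.8, 1.66 to 28.3 and 4.03 to 10.9 CPM. S100a8 and S100a9 were at most 3.52 CPM in VEH_7 and M20_7, where Csf3r ran from 15.1 to 23.4 and from 11.1 to 19.4 CPM. The liver gene Alb was at or under 0.588 CPM throughout.

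**Figure D1:**
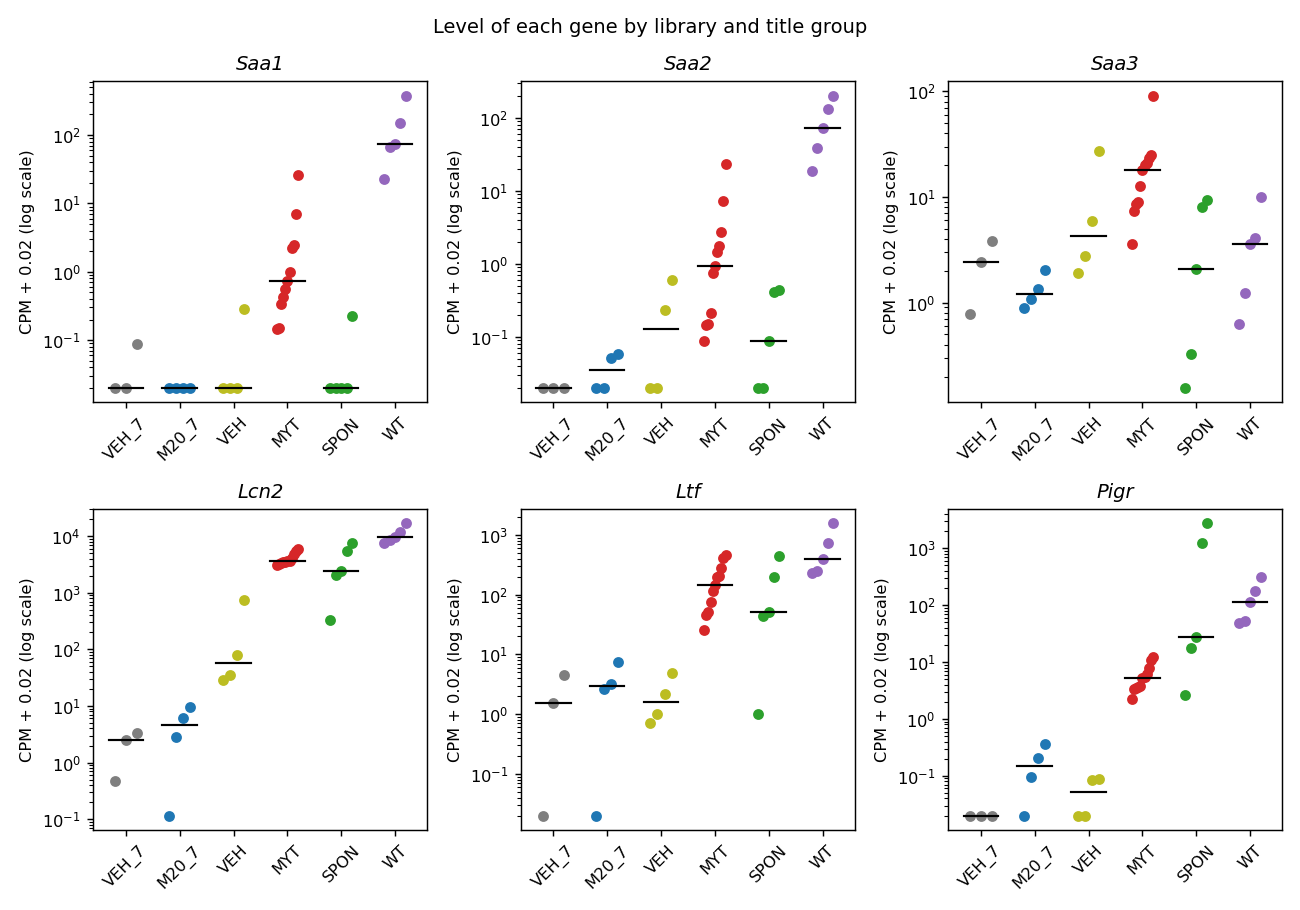
CPM of the 6 genes in 32 libraries, on a log axis after adding 0.02 so that zeros can be drawn. Each point is 1 library, coloured by title group, and black bars are group medians. Saa1 and Saa2 are highest in WT, Lcn2 and Ltf are high in MYT, SPON and WT, and Pigr spans the widest range in SPON.

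Saa1 and Saa2, the serum amyloids of the acute-phase response, had their highest levels in the WT tumours. In replicate order, Saa1 stood at 148, 72.8, 377, 66.0 and 22.8 CPM in WT, and Saa2 at 131, 73.0, 199.7, 38.6 and 18.6 CPM. Among the SPON tumours, Saa1 had 4 counts in all, each of them in replicate 2 (0.207 CPM), and Saa2 had 14 counts, with 0.389, 0.413, 0.0681, 0 and 0 CPM. Every SPON library was thus below every WT library for both genes. The MYT libraries had a wide spread that overlapped both groups: Saa1 ran from 0.126 to 26.0 CPM around a median of 0.721, and Saa2 from 0.0677 to 23.2 CPM around a median of 0.906. Replicates 9 (7.05 CPM of Saa1) and 11 (26.0 CPM) were the high ones, and replicate 11 alone gave 63.6% of the summed MYT level of Saa1 and 60.2% of that of Saa2. In the VEH libraries, Saa1 was counted only in replicate 1 (0.261 CPM), and Saa2 in replicates 1 (0.588 CPM) and 4 (0.214 CPM). In VEH_7 and M20_7 both genes were at or near 0, with at most 2 counts in any library, and a count of 0 over the 4 M20_7 libraries allows a level of up to 0.0241 CPM for Saa1.

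The levels of Saa1 and Saa2 followed each other closely from library to library. Over the 11 MYT libraries their log2(CPM + 0.5) values correlated with a Pearson r of 0.97 and a Spearman rho of 0.85. Without the 2 libraries farthest from the median of Saa1, r was 0.87 over the 9 left. The part of the sequence shared by the 2 genes in this correlation was not tested. Saa1 made up 53.0%, 49.9%, 65.4%, 63.1% and 55.1% of the counts of the pair in WT replicates 1 to 5, and 52.9% in MYT replicate 11 (exact Clopper-Pearson 95% interval 49.7% to 56.0%). The Saa1 share was therefore higher in WT replicates 3 (64.4% to 66.3%) and 4 (61.0% to 65.2%) than in replicate 2 (47.8% to 52.0%) beyond counting error. Intervals and floors here cover counting error only.

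**Figure D2:**
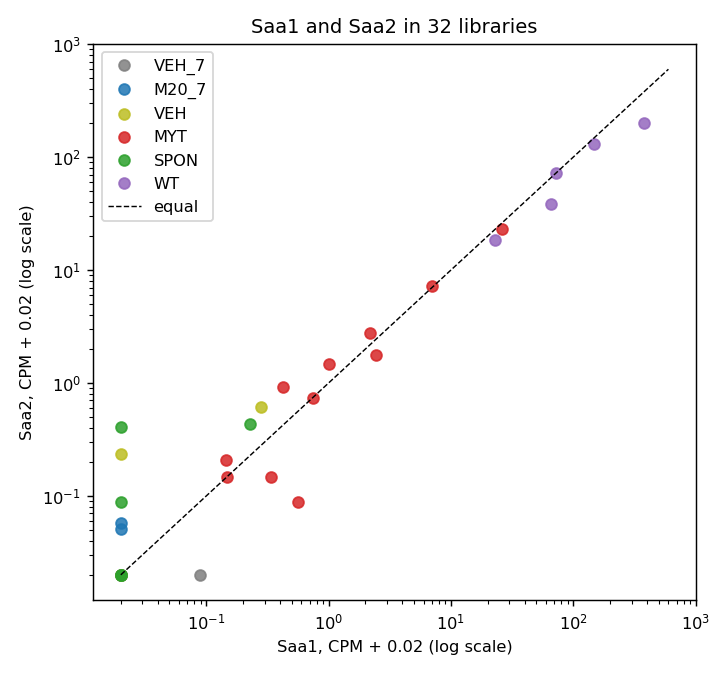
Saa1 against Saa2 in each of 32 libraries, in CPM + 0.02 on log axes, with the line of equal levels dashed. The WT libraries and MYT replicates 9 and 11 lie close to the line, and all vehicle, M20_7 and SPON libraries are at 0.588 CPM or less for both genes.

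Saa3, the serum amyloid made outside the liver, had another pattern. It was detected in all 32 libraries and was highest in MYT, at 3.59 to 91.0 CPM with a median of 18.0. In VEH it stood at 27.4, 1.88, 5.87 and 2.72 CPM, so that replicate 1 lay above every MYT library but replicate 11 and the ranges overlapped. The WT tumours, which led for Saa1 and Saa2, had 3.53, 4.06, 9.93, 0.606 and 1.23 CPM of Saa3. The SPON range overlapped that of WT, with 9.42, 0.310, 0.136, 8.07 and 2.06 CPM. VEH_7 (0.758, 2.41 and 3.83 CPM) and M20_7 (0.870, 1.32, 1.05 and 2.02 CPM) were low. Ranked by median, the groups ran MYT, VEH, WT, VEH_7, SPON and M20_7, and the ranges of each pair of neighbours in that order overlapped. Within MYT all 3 Saa genes were highest in replicate 11. Over the 11 MYT libraries the Pearson r of Saa3 was 0.69 with Saa1 and 0.79 with Saa2. It was 0.06 with Saa1 over the 9 without the 2 farthest from the median of Saa1. With Saa2 it was 0.44 over the 9 without the 2 farthest from the median of Saa2.

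Lcn2 was by far the most abundant of the 6 genes. In WT it stood at 9754, 11849, 16823, 8634 and 7650 CPM, which is 0.879% to 1.78% of all counts of a library. MYT libraries were close to each other, from 3053 to 5862 CPM with a median of 3566. Every WT library was above every MYT library, and every MYT library above every VEH library. SPON was far more variable, with 7652, 5528, 332, 2382 and 2056 CPM: replicate 1 reached the lowest WT library, and replicates 3, 4 and 5 were below every MYT library. The VEH libraries had 755, 80.0, 28.5 and 35.4 CPM, so that replicate 1 stood above the other 3. In VEH_7 (3.30, 0.456 and 2.52 CPM) and M20_7 (2.80, 6.19, 0.0957 and 9.50 CPM) Lcn2 was lower than in any VEH library.

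Ltf, the iron-binding protein of milk and secretions, was also high in WT, MYT and SPON and low in the other groups. Its WT values were 229, 251, 747, 1566 and 394 CPM. In MYT it ran from 25.2 to 466 CPM with a median of 143, an 18.5-fold range against 1.92-fold for Lcn2 in the same libraries. SPON held both high and very low libraries, at 199.6, 0.982, 446, 43.4 and 50.8 CPM. All other libraries were at or under 7.42 CPM: 4.84, 2.17, 0.691 and 1.0 in VEH, 1.52, 0 and 4.41 in VEH_7, and 3.18, 2.62, 0 and 7.42 in M20_7. The MYT and SPON ranges overlapped, as did those of MYT and WT. Within MYT, the 5 libraries with title numbers below 500 had a median of 51.1 CPM of Ltf (25.2 to 201) and the 5 with title numbers above 2000 a median of 209 (115 to 466). What the title numbers stand for is not given in the labels.

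Pigr spanned the widest range of the 6 genes within a group. In SPON it stood at 2.65, 27.7, 1254, 17.9 and 2749 CPM, a 1039-fold range, with replicates 3 and 5 far above the rest. The WT values were closer together, at 312, 115, 53.0, 176 and 48.4 CPM, above SPON replicates 1, 2 and 4 and below SPON replicates 3 and 5. MYT libraries ran from 2.24 to 12.5 CPM with a median of 5.17. Nearly nothing was counted elsewhere: VEH had 0.0653, 0, 0.0691 and 0 CPM (2 counts in all), M20_7 had 0.0756, 0.345, 0 and 0.186 CPM (20 counts), and VEH_7 had no count, which allows up to 0.0349 CPM. Every MYT library was above every VEH library and below every WT library for Pigr.

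Set per kilobase of merged exons, the WT medians were 3719 CPM per kb for Lcn2, 114 for Ltf, 29.4 for Saa1, 29.0 for Saa2, 28.6 for Pigr and 1.36 for Saa3. With the principal transcript as the length, an alternative added after seeing the data, the Saa1 median was 119 CPM per kb and that of Ltf 144. In both scalings Lcn2 was the most abundant and Saa3 the least in WT.

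The comparison of MYT with VEH asks how tumours given RP-6306 differed from vehicle tumours among titles without the ending _7. Mean Lcn2 was 4018 ± 943 CPM (SD, n = 11) in MYT and 225 ± 354 (SD, n = 4) in VEH, a log2 fold change of 4.16 ± 0.75 (SE). For Ltf the values were 184 ± 150 against 2.17 ± 1.88 CPM (SD), with a log2 fold change of 6.38 ± 0.94. Pigr, on 2 VEH counts, was 173-fold higher in MYT by summed counts, with a 95% counting interval of 47.9 to 1433. For these 3 genes every MYT library lay above every VEH library, 3 of 6 members, where 18.1% of all genes with a mean of at least 1 CPM did so. Because this pattern helped to choose them, nothing is read from that count. The Saa genes overlapped between the groups: log2 fold changes were 5.61 ± 1.85 for Saa1, 4.04 ± 1.60 for Saa2 and 1.19 ± 0.76 for Saa3.

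VEH replicate 1 moved the fitted values of 5 of the members. Without it the log2 fold change became 6.40 for Lcn2, 7.17 for Ltf, 2.64 for Saa3 and 5.50 for Saa2, and Saa1, then with no VEH count, was at least 59.0-fold higher in MYT (3 counts over the group taken as the floor). Without MYT replicate 11 the values for Saa1 and Saa2 were 4.30 and 2.86. Markers of cell types were counted in the same comparison, where 30.5% of all 16021 genes tested were called higher and 29.0% lower (edgeR adjusted p under 0.05). In MYT, 16 of 18 tested luminal epithelial markers, 7 of 9 milk-secretory markers and 4 of 5 salivary gland markers were higher. Of 14 neutrophil markers 7 were higher and 2 lower, whereas 13 of 14 macrophage markers and 16 of 18 mesenchymal markers were lower. Of the 14 matched salivary gland markers only those 5 could be tested, and Prol1, Bpifa2 and Dcpp3 were at 0 in every MYT and VEH library. The salivary call of Bhlha15 was lost without VEH replicate 2, 3 or 4 (edgeR adjusted p between 0.0539 and 0.0743). Milk-secretory markers summed to 2584 to 5462 CPM in MYT and 506 to 1118 in VEH, and 20 neutrophil markers to 189.8 to 358 in MYT and 106 to 188 in VEH, with Fcnb at 0 in VEH. The part of these markers in the differences of the 6 genes was not tested.

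**Figure D3:**
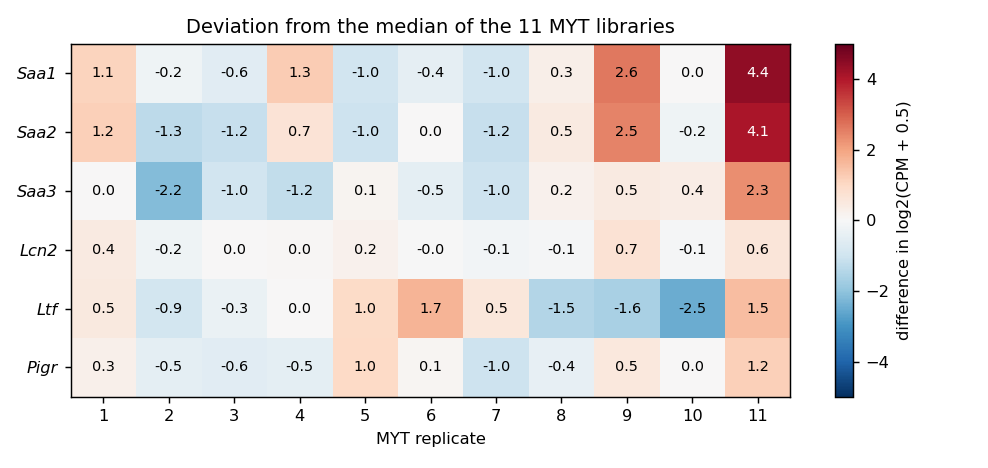
Deviation of each gene in each MYT library from the median of the 11 MYT libraries, as a difference in log2(CPM + 0.5). Replicate 11 is above the median for all 6 genes and replicate 9 for all but Ltf, and the row of Lcn2 is nearly flat.

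Genes related to the 6 by pathway were taken from 7 lists holding 159 genes, of which 158 matched a row and 121 could be tested in MYT against VEH. By edgeR's quasi-likelihood test with Benjamini-Hochberg adjustment over all genes, 44 of these were higher in MYT and 44 lower, 72.7% of those tested, where 59.5% of all 16021 genes tested were called (30.5% higher and 29.0% lower). Among acute-phase proteins, 7 of 16 rose and 5 fell, with a median log2 fold change of 0.62 against 0.04 for all genes. Hp, the haemoglobin scavenger haptoglobin, rose by a log2 fold change of 4.49 ± 0.55 (edgeR adjusted p = 3.17e-06), and Lbp, which hands bacterial lipopolysaccharide to its receptor, by 3.70 ± 0.32 (adjusted p = 7.36e-08). Cp, the copper carrier ceruloplasmin, rose by 1.61 ± 0.25. Among secreted epithelial defence genes, 10 of 17 rose and 4 fell (median 1.55), including the mucin gene Muc1 at 3.14 ± 0.38, the protease inhibitor gene Wfdc2 at 2.90 ± 0.35 and the peptidoglycan-binding Pglyrp1 at 3.99 ± 0.53.

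The genes that handle lipocalin, lactoferrin and iron went the other way in most cases: 10 of 16 fell and 3 rose, with a median of -1.07. Over all genes tested, 29.0% fell and 30.5% rose, and nothing is read from list counts near these shares. Mmp9, a protease that forms a complex with lipocalin 2, fell by 5.93 ± 0.32 on the log2 scale (edgeR adjusted p = 8.36e-10). Lrp1, a lactoferrin receptor, fell by 3.85 ± 0.24, and Hmox1, which frees iron from haem, fell by 2.10 ± 0.16. Among receptors and carriers of serum amyloid A, 2 of 12 rose and 5 fell: the scavenger receptor gene Cd36 fell by 3.26 ± 0.40 and Tlr4 by 0.91 ± 0.15, while the lipoprotein receptor gene Scarb1 rose by 0.92 ± 0.12. For transport of polymeric immunoglobulin, 6 of 15 genes rose and 5 fell. Ap1m2, an adaptor subunit of epithelial basolateral sorting, rose by 4.50 ± 0.57. The apical transport gene Mal fell by 5.68 ± 0.60. Fcgrt, which encodes the neonatal Fc receptor for IgG and not a receptor for polymeric immunoglobulin, fell by 3.15 ± 0.36.

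Among the transcription regulators upstream of these genes, 10 of 24 rose and 5 fell, where 59.5% of all genes tested were called. Nothing is read from a count near that share. Cebpd rose by a log2 fold change of 1.58 ± 0.14 (edgeR adjusted p = 1.02e-07) and Stat3 by 1.0 ± 0.13 (adjusted p = 5.62e-06), and the kinase gene Jak1 fell by 0.87 ± 0.10. Of the cytokines and receptors of the IL-6, IL-1, TNF and IL-17 families, 6 of 21 rose and 10 fell. Il6ra, a subunit of the interleukin 6 receptor, fell by 1.33 ± 0.11, Il17rc by 1.27 ± 0.13 and the cytokine gene Il11 by 3.51 ± 0.41. Leaving out any 1 library kept all 21 of these named calls, and the number of list genes called ran from 83 to 90. Some values moved: without VEH replicate 1 the changes of Hp, Pglyrp1 and Ap1m2 were 5.11, 5.25 and 6.20, and without VEH replicate 4 that of Mal was -5.03. With limma's voom that of Ap1m2 was 5.70.

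**Figure D4:**
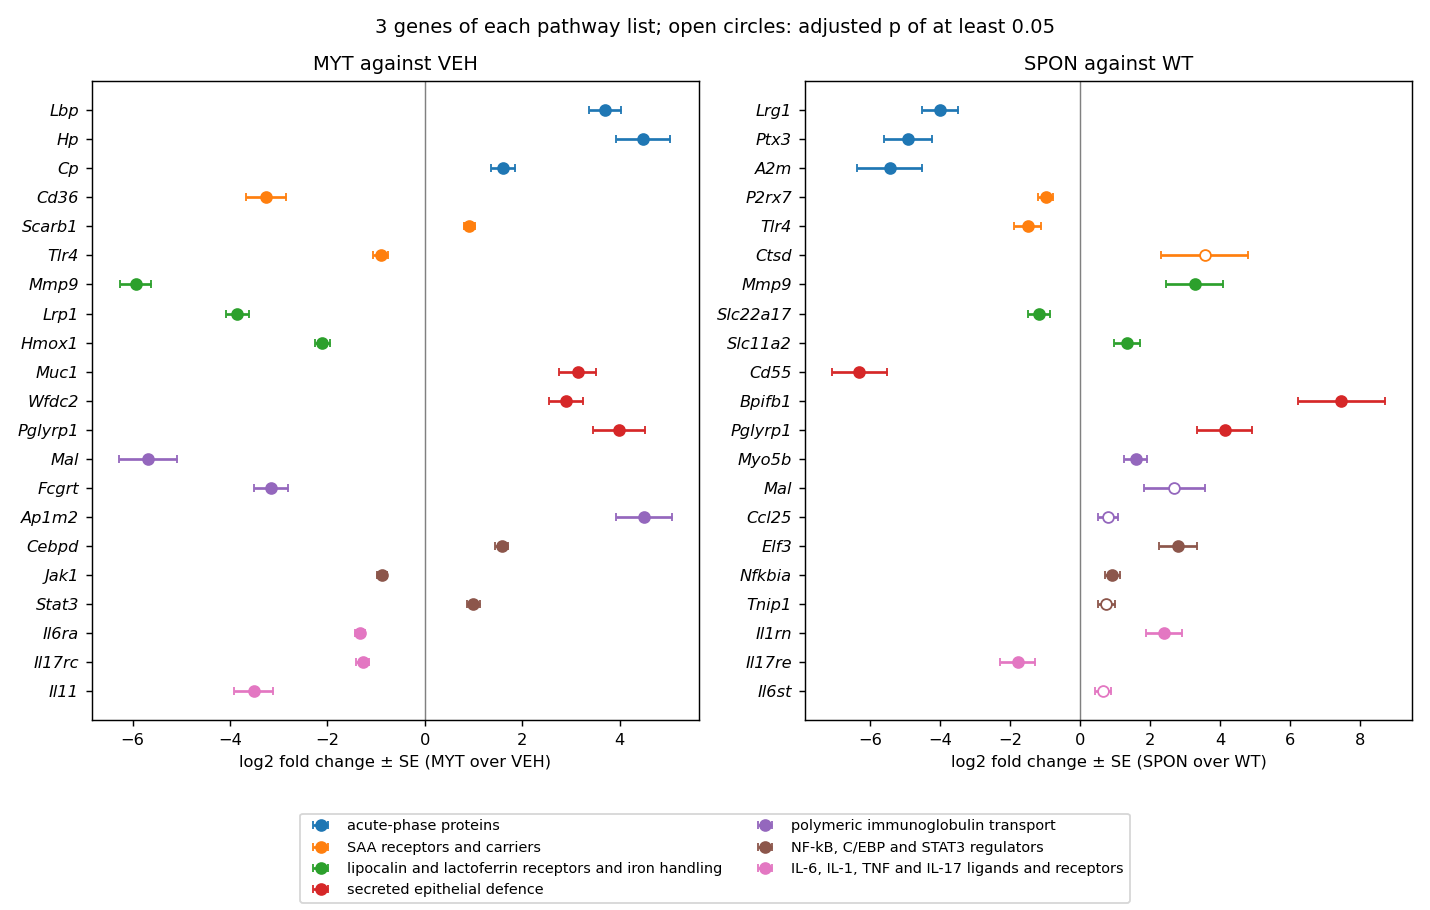
Log2 fold changes with standard errors for the 3 genes of each pathway list with the smallest adjusted p, in MYT against VEH (left) and SPON against WT (right), coloured by list. Filled circles passed an edgeR adjusted p of 0.05, as all 21 on the left and 16 of 21 on the right did.

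The comparison of M20_7 with VEH_7 asks the same question among titles ending in _7, where epithelial markers were low in both groups. Here the members stayed low and the 2 groups overlapped for all 6, where 3.08% of all genes with a mean of at least 1 CPM had every M20_7 library above every VEH_7 library and 3.74% had every one below. Lcn2 averaged 4.65 ± 4.09 CPM (SD, n = 4) in M20_7 and 2.09 ± 1.47 (SD, n = 3) in VEH_7, a log2 fold change of 1.16 ± 0.99 (SE). Log2 fold changes were 0.74 ± 1.28 for Ltf and -0.82 ± 0.51 for Saa3, and Pigr was at least 4.60-fold higher in M20_7 by summed counts (20 counts against 0). Saa1 and Saa2 had too few counts in both groups for a fold change. Single libraries set the values: without M20_7 replicate 4 the change was 0.54 for Lcn2 and -0.04 for Ltf, without VEH_7 replicate 2 or 3 that of Ltf was 0.15 or 2.14, and without M20_7 replicate 2, VEH_7 replicate 2 or VEH_7 replicate 3 the bound for Pigr was 2.55, 2.96 or 3.05. Fat markers were uneven between these libraries: Adipoq, a hormone gene of adipocytes, stood at 0.340, 3.51, 0 and 8.45 CPM in M20_7 and at no more than 0.455 in VEH_7, and the sum of 15 adipocyte markers at 149, 199, 119 and 353 CPM in M20_7 and at 156 to 195 in VEH_7. Luminal and neutrophil sums overlapped between the groups. The sum of 14 B and plasma cell markers did not, at 465 to 779 CPM in M20_7 and 416 to 433 in VEH_7. Jchain, which joins IgA into dimers, was highest in M20_7 replicate 2, at 29.1 CPM against at most 1.28 in VEH_7. That library held 12 of the 20 Pigr counts. Its level of Igha, the IgA heavy chain (1.497 CPM), was within the VEH_7 range of 0.814 to 4.07. The part of the fat, B and plasma cell markers in the levels of Lcn2, Ltf and Pigr was not tested. Of the 114 list genes tested, edgeR called 0 (20 at an unadjusted p under 0.05), and it called 0.0% of all 16699 genes. Over all genes, 1033 had an unadjusted p under 0.05, DESeq2 called 55 and limma's voom 0.

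The log2 fold changes of the 2 sets were then compared directly. The change in MYT against VEH exceeded that in M20_7 against VEH_7 by 3.01 ± 1.19 (SE) for Lcn2, 5.65 ± 1.46 for Ltf and 2.03 ± 1.15 for Saa3, on the log2 scale and given as descriptions. These values rested in part on VEH replicate 1, without which they were 5.21, 6.40 and 3.44, on M20_7 replicate 4, without which they were 3.61 for Lcn2 and 6.43 for Ltf, and on VEH_7 replicate 3, without which Ltf stood at 4.22. Of 127 list genes tested for this difference, 33 were called higher and 37 lower by edgeR (55.1%), against 36.0% of all 17095 genes (17.0% higher and 18.9% lower). Among the transcription regulators 10 of 24 were higher and 1 lower, with Cebpd at 1.98 ± 0.19 (edgeR adjusted p = 2.44e-07), Stat3 at 1.23 ± 0.19 and the epithelial factor gene Ehf at 6.42 ± 1.27. The labels give neither the tumour of origin nor the treatment period of a set, and these cannot be told apart.

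The comparison of SPON with WT sets 2 kinds of untreated tumour side by side. Saa1 averaged 0.0413 ± 0.0924 CPM (SD, n = 5) in SPON and 137 ± 141 in WT, a log2 fold change of -11.17 ± 1.12 (SE), and Saa2 averaged 0.174 ± 0.209 against 92.3 ± 73.7, a change of -8.92 ± 0.97. By summed counts, WT was 2523-fold higher for Saa1 (95% counting interval 985 to 9261) and 484-fold for Saa2 (288 to 886). For these 2 of 6 members every SPON library was below every WT library, as was the case for 5.26% of all genes with a mean of at least 1 CPM. Since the members were chosen on these levels, nothing is read from that share. Lcn2 changed by -1.59 ± 0.67 on the log2 scale and its ranges met at the edge, at 7652 CPM in SPON replicate 1 and 7650 in WT replicate 5. Ltf changed by -2.09 ± 1.06 and Saa3 by 0.07 ± 1.02.

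Pigr had no single direction between SPON and WT. Its mean was higher in SPON, at 810 ± 1209 against 141 ± 109 CPM (SD), but its median was lower, at 27.7 against 115 CPM. The fitted log2 fold change was 2.54 ± 1.41 with edgeR and -0.35 with limma's voom, and 1.22 with edgeR without SPON replicate 5. The same 2 SPON libraries that were high for Pigr had the highest summed salivary markers and the highest IgA genes of both groups, though not every salivary marker followed. The 14 matched salivary gland markers summed to 2473, 3674, 5412, 528 and 50705 CPM in SPON and to 724 to 3308 CPM in WT, and only Muc19 was at 0 in all libraries of both groups. Bpifa2, a secreted protein of the parotid gland, stood at 0, 0.775, 387, 13.3 and 32382 CPM in SPON, at no more than 1.40 CPM in WT, and at 0 in every library of the other 4 groups. Prol1 stood at 0, 6.87, 500, 6.39 and 3.72 CPM in SPON and at 0.669 to 28.0 in WT. Bhlha15 stood at 3.35, 160, 237, 17.8 and 200 CPM in SPON and at 61.0 to 307 in WT. In SPON, Igha, the IgA heavy chain, stood at 0.156, 0.568, 289, 3.81 and 52.1 CPM and Jchain, which joins IgA into dimers, at 0.778, 0.155, 40.6, 0.775 and 5.85 CPM. The part of these genes in the Pigr levels was not tested.

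**Figure D5:**
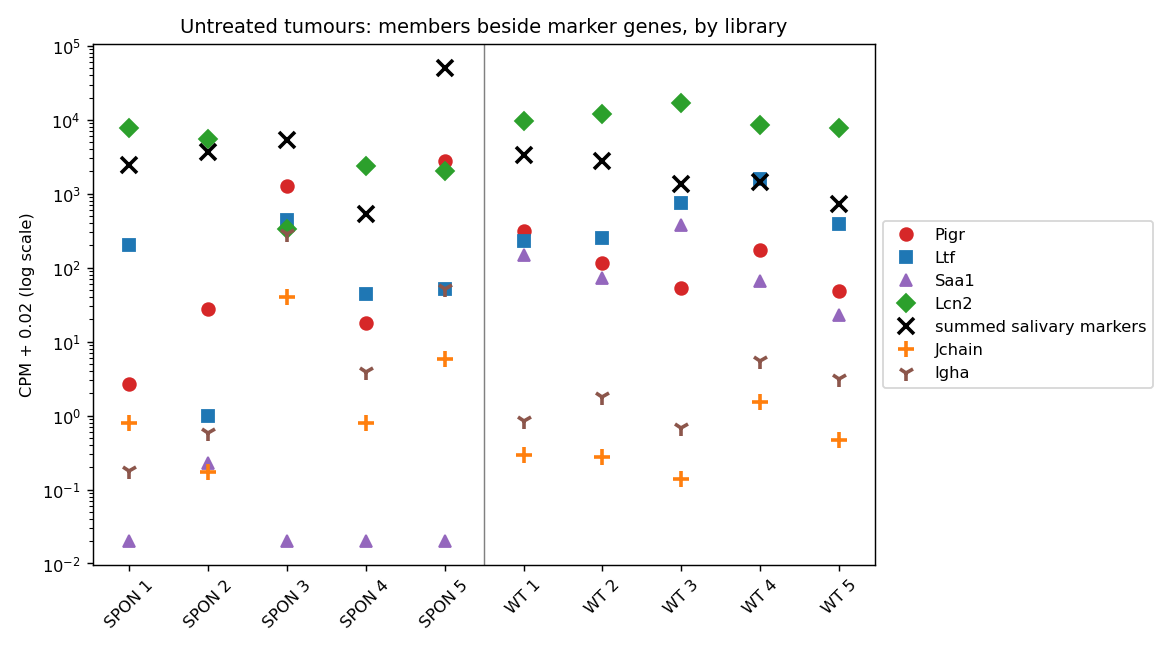
CPM + 0.02 on a log axis for Pigr, Ltf, Saa1 and Lcn2 beside summed salivary markers, Jchain and Igha in the 5 SPON and 5 WT libraries. Pigr, Igha and Jchain are all highest in SPON replicates 3 and 5, and Saa1 lies at the bottom of the plot in all SPON libraries but replicate 2.

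Saa1 in SPON rested on replicate 2: without it there was no SPON count, and WT was at least 2496-fold higher (fitted log2 change -14.10). Without WT replicate 3 the fitted change was -10.37, and without SPON replicate 2 that of Saa2 was -9.62. Ltf changed by -3.08 without SPON replicate 3 and by -1.48 without WT replicate 4, and the change of Saa3 took either sign, -0.52 without SPON replicate 1 and 0.76 without WT replicate 3. Milk-secretory markers, of which 5 of 10 tested were lower in SPON (3.86% of all genes were), summed to 322 to 2358 CPM in SPON and 7045 to 16784 in WT. Most of the WT sum was Csn3, with a mean of 10703 CPM in WT and 230 in SPON. The milk genes Csn2, Csn1s1, Csn1s2a and Mfge8 were not called, and Csn2 stood at 1.11 to 67.1 CPM in WT and 2.22 to 95.4 in SPON. Neutrophil markers summed to 22 to 105 CPM in SPON and 35.7 to 60.5 in WT, with Fcnb and Cebpe at 0 in both groups. Hepatocyte markers summed to 0.622 to 43.5 CPM in SPON and 1.06 to 4.40 in WT, ranges that overlap. The part of the milk-secretory, neutrophil and hepatocyte markers in these differences was not tested.

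Of 109 pathway list genes tested in SPON against WT, 10 were higher and 9 lower by edgeR (17.4%), against 8.38% of all 15558 genes (4.52% higher and 3.86% lower), with between 10 and 23 called when 1 library was left out. Among acute-phase proteins, 4 of 13 fell and none of the 13 rose, with a median log2 fold change of -1.02 against 0.07 for all genes. They were Lrg1, a leucine-rich plasma glycoprotein (-3.99 ± 0.52, edgeR adjusted p = 0.00194), the pentraxin gene Ptx3 (-4.92 ± 0.69, adjusted p = 0.00328), the protease inhibitor gene A2m (-5.44 ± 0.93, adjusted p = 0.00824) and Steap4, a metal reductase of the acute-phase response (-2.61 ± 0.53). Steap4 falls outside the rule for named genes and was named after its value was seen. Of 14 secreted defence genes 4 rose and 1 fell: Bpifb1, a secreted bactericidal-fold protein, rose by 7.46 ± 1.24 (edgeR adjusted p = 0.00745, but 0.062 with limma's voom), Pglyrp1 rose by 4.13 ± 0.78, and Cd55, which protects cells from complement, fell by 6.30 ± 0.77 on the log2 scale. Without SPON replicate 1 the change of Ptx3 was -5.83, without SPON replicate 3 or WT replicate 4 that of Bpifb1 was 6.17 or 8.14, and without SPON replicate 5 or WT replicate 2 that of Pglyrp1 was 3.50 or 4.77. With limma's voom the changes of A2m and Cd55 were -6.73 and -7.09.

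Among immunoglobulin transport genes 1 of 14 rose, the motor gene Myo5b at 1.58 ± 0.32. Over all genes tested, 4.52% rose and 3.86% fell, and nothing is read from list counts near these shares. Elf3, an epithelial transcription factor, rose by 2.80 ± 0.54 (edgeR adjusted p = 0.0126), 1 of 2 of the 24 regulators that rose. Il1rn, the interleukin 1 receptor antagonist, rose by 2.40 ± 0.51, a call that was lost without WT replicate 3 (edgeR adjusted p = 0.0507). The serum amyloid receptor genes P2rx7 and Tlr4, the protease gene Mmp9, the lipocalin receptor gene Slc22a17, the iron transporter gene Slc11a2, the inhibitor gene Nfkbia and the receptor gene Il17re also passed the threshold, with log2 changes of -0.98, -1.50, 3.27, -1.18, 1.34, 0.91 and -1.78. Each of these 7 calls was lost when some single library was left out, 2 of 10 libraries for P2rx7, 5 for Mmp9, 7 for Nfkbia and 8 for each of the other 4, with adjusted p between 0.0506 and 0.109 when lost.

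Likeness to other genes was measured as the Pearson r of log2(CPM + 0.5) over 32 libraries after subtracting each group's mean, among 12485 genes, and is given as a description. Saa1 and Saa2 were each other's closest gene (r = 0.96), followed for Saa1 by N4bp2os at 0.62 and Acvr1b, an activin receptor gene, at 0.61, and for Saa2 by Ankzf1 at 0.63. Saa3 was most like Slc35f1 (0.75), Stx3 (0.71) and the kininogen gene Kng1 (0.69). For Lcn2 the closest were the luminal transcription factor gene Tfap2c (0.82), Klhdc7a (0.82) and the proton pump subunit gene Atp6v1c2 (0.77). Ltf was most like Med22 (0.77), the nuclear receptor gene Nr2f6 (0.73) and the keratin gene Krt7 (0.72). For Pigr they were the cobalamin carrier gene Tcn2 (0.95), Oit1 (0.93) and Dmrt3 (0.92). By rank over the same 32 libraries the likeness to Pigr was lower, with a Spearman rho of 0.70, 0.54 and 0.38. Several of these resemblances were weaker over the 11 MYT libraries alone. There r with Pigr was 0.66 for Tcn2, -0.17 for Oit1 and -0.28 for Dmrt3, r with Lcn2 was 0.37 for Tfap2c, 0.50 for Klhdc7a and 0.56 for Atp6v1c2, and r with Saa3 was 0.55 for Slc35f1, 0.37 for Stx3 and 0.47 for Kng1. For Ltf it was 0.67 with Med22, 0.53 with Nr2f6 and 0.77 with Krt7, while for Saa1 it was 0.70 with N4bp2os and 0.89 with Acvr1b, and for Saa2 0.84 with Ankzf1.

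Within MYT, Pearson r over the 11 libraries was 0.78 between Saa3 and Pigr and 0.77 between Lcn2 and Pigr. Each pair was also measured over the 9 libraries without the 2 farthest from the median of its first gene. First means first in the order Saa1, Saa2, Saa3, Lcn2, Ltf, Pigr, so the 2 left out can differ between pairs. Over these 9, r was 0.70 between Saa3 and Pigr and 0.65 between Lcn2 and Pigr. Other pairs changed more when their own 2 libraries were left out. There r fell from 0.58 to -0.01 between Saa1 and Pigr, from 0.63 to 0.19 between Saa2 and Pigr, and from 0.79 to 0.42 between Saa1 and Lcn2. Ltf correlated with each of the other 5 at r between 0.08 and 0.30. Over the 9 libraries left for each pair, r of Ltf was -0.21 with Saa1, -0.01 with Saa2, -0.49 with Saa3, 0.37 with Lcn2 and 0.40 with Pigr. All libraries of a group share their processing, and these 15 pairs were compared without a test.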

How the data were processed

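RNA-seq of 33 mouse mammary tumour samples was analysed from the read counts that the authors deposited, whole numbers per gene for 54532 rows. The submitters' processing notes name STAR 2.7.10a, HTSeq, edgeR and GRCm38, with no role for each. The annotation release, strandedness and filters are not given in the sources used here. A deposited table of log2 CPM differed from log2 CPM recomputed from the counts by a constant 0.0576 and was used only for that check. Rows without a symbol (791, holding 0.0482% of the counts) name no gene of interest here and kept their identifiers.

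CPM values used TMM factors over all 33 libraries. Groups came from the sample titles, and 1 library whose title says vehicle and whose treatment field says RP-6306 entered no group. Each comparison was fitted on its own groups by edgeR's quasi-likelihood test (version 4.0.16 in R 4.3.3, with filterByExpr and TMM), and calls were made at an adjusted p (Benjamini-Hochberg) under 0.05. DESeq2 1.42.0 and limma 3.58.1 (voom) served as alternatives, with other size factors, no filter, 1 fit over 32 libraries and each library left out. The edgeR fits were also run on simulated counts with known fold changes, and the outcome is not given here. Total counts ranged from 13701115 to 34637096. Nothing in the labels ties each library of a group to its own animal, so the spread behind the p-values may be technical. Each of the 90 pairs of libraries within groups differed beyond counting noise (chi-square of at least 16.1 per degree of freedom), and none was merged. Separate libraries of the same tumour could also differ in this way, so the check does not show that the libraries come from separate tumours. The members and the gene lists were chosen with earlier results of these data known. Named list genes are the 3 of each list with the smallest adjusted p and an average log2 CPM of at least 1. Gene positions are from GENCODE annotation of GRCm38 and start-site windows from RefSeq (GRCm38.p6), where all 6 members matched.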

Additional observations from a re-analysis of the deposited data

Results flagged for a closer look

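In 21 sets, each the values of a gene in a group of 4 or 5 libraries, the gap of the highest or lowest value to its neighbour was set against the range. Past Dixon's 95% critical value stood 4 values, all from VEH replicate 1 or SPON replicate 2. Chance passes that value in about 1 of 20 independent sets of normally distributed values. These sets share libraries, so that rate need not hold here. The members were chosen with these levels known, so this is a description and no test. Lcn2 in VEH replicate 1 stood at 755 CPM against 28.5 to 80.0 in the other 3 VEH libraries, and Saa3 in the same library at 27.4 CPM against 1.88 to 5.87. Saa1 in VEH replicate 1 (0.261 CPM, 4 counts) and in SPON replicate 2 (0.207 CPM, 4 counts) are among the flagged values by construction, since all other libraries of those groups were at 0.

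Between the 2 sets, the fold change of treated over vehicle libraries differed for 70 genes of the 7 pathway lists by edgeR's test of that difference. Treatment and tumour of origin cannot be told apart in it. Muc1 had a difference of 4.68 ± 0.65 (SE), Mmp9 of -5.45 ± 0.54 and Slc22a17, a receptor gene for lipocalin 2, of 2.60 ± 0.31. Trf, which encodes transferrin, stood at 3.62 ± 0.52 and Lbp at 3.14 ± 0.43.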

How the results depend on the processing

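Of the values taken as main results, 450 under an alternative were labelled the same as the value given and 29 as moved. Among the other values checked, 2348 were labelled the same, 107 moved, 106 weaker and 39 stronger. Among named genes of the lists any change of sign had a label of its own, and no value got it. For the 6 members, a change of sign was labelled the same if it was smaller than the pooled SD within groups. These counts therefore do not show that the signs of member values held or that values stayed close. The log2 fold changes of Saa3 and Pigr in SPON against WT and of Ltf in M20_7 against VEH_7 took either sign under some setting. In M20_7 against VEH_7, 6 genes were called with no filter on low counts and 55 with DESeq2, which also called 1 list gene. In SPON against WT, DESeq2 called 2643 genes and 32 list genes, and 1 fit over 32 libraries called 5472 and 51. For the difference between the sets that single fit called 3501 genes and 38 list genes. With limma's voom, Lcn2 changed by 5.47 in MYT against VEH and by 5.0 in the difference between the sets. The causes were not tested.

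Leaving out 1 library at a time gave 506 to 1887 genes and 10 to 23 list genes called in SPON against WT. Log2 fold changes in MYT against VEH ran from 4.30 to 8.92 for Saa1, 0.65 to 2.64 for Saa3 and 3.78 to 6.40 for Lcn2. In SPON against WT, Saa1 ran from -14.10 to -10.37. In the difference between the sets, Saa3 ran from 1.47 to 3.44, Lcn2 from 2.51 to 5.21 and Ltf from 4.22 to 6.43. The bound for Pigr in M20_7 against VEH_7 ran from 2.55 to 6.14.

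No paired analysis was possible because the numbers in the sample titles are not shared between groups and replicates were numbered in accession order. Depth limits Saa1, Saa2 and Pigr in the vehicle and M20_7 libraries, where most counts were 0. Saa1 in SPON is limited in the same way.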
